A study of Mus musculus with 10 samples.

Results

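The genes described here are the 81 of 6147 listed genes whose symbols mark the lysosome and the sorting machinery that feeds it: subunits of the vacuolar proton pump (V-ATPase), cathepsins and other lysosomal hydrolases, Lamp1 and Lamp2, the Ragulator, and the Vps, Chmp and Snx genes. The rule that picked them reads symbols alone and no measured value, but it was set with earlier results of these data known. Polyadenylated RNA was sequenced from whole neocortex of CD1 wild type mice at 5 stages, namely embryonic days E12.5, E14, E15.5 and E17 and the day of birth (P0), with 2 biological replicate libraries at each stage. No animal was mutant or treated, and the labels do not say how many animals or litters went into a library. Frozen tissue was lysed with detergent and the lysate was cleared by centrifugation before RNA was extracted, so RNA that went with the pellet was not measured.

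Lysosomes are acidic organelles that break down material delivered by endocytosis and autophagy. The V-ATPase pumps protons across their membrane, and in neurons the same pump also loads synaptic vesicles with transmitter. Hydrolases made in the secretory pathway work at the resulting low pH. Cargo is sorted on endosomes: ESCRT complexes bend membrane inwards to form multivesicular bodies bound for the lysosome, retromer and sorting nexins retrieve cargo to the Golgi apparatus or the cell surface, and the HOPS and CORVET tethers bring membranes together for fusion.

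Levels are given in TPM, the share of transcripts in a library's total after adjustment for gene length, and changes as differences of stage means of log2(TPM + 1). A member is called changed where limma's adjusted p was under 0.05 in a fit across the 6048 genes whose mean reached 1 TPM. Of the 81 members 80 passed this filter. The exception was Vps25, an ESCRT-II subunit, at 0.361 to 1.13 TPM over the 10 libraries, and its gene overlaps Ramp2 on the same strand. Among the other 80, mean levels over the libraries ran from 2.58 TPM for Vps13a to 568 TPM for Atp6v1g1.

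Replicate libraries correlated at r = 0.989 to 0.999 across genes within a stage. The E17 pair was the least alike, with a standard deviation of 0.285 for the difference between its libraries on the log2 scale, against 0.088 to 0.176 at the other stages. At E17 the difference between replicate 1 and replicate 2 rose with transcript length, with a Spearman rho of 0.50 across all genes and 0.38 across the 80 members. The same rho across all genes was -0.43 at P0, -0.28 at E14, -0.11 at E12.5 and 0.02 at E15.5, so the P0 pair also differed with length, in the other direction. Named changes into or out of E17 are given with and without each of its libraries. Since TPM are shares, the median gene fell by 0.27 from E12.5 to P0; after median-of-ratios scaling it fell by 0.01. Changes are described as measured on TPM, and the text says where a scaling turns one round. In whole tissue, fewer cells of a type and less RNA per cell cannot be told apart.

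Over the whole interval from E12.5 to P0, 59 of the 80 members tested were called, 39 higher and 20 lower at birth, and their median change was 0.21. Among all 6048 genes 78.2% were called in this comparison, 27.1% higher and 51.0% lower, and the median change was -0.27. These shares are the background for every count of calls from E12.5 to P0 on TPM below. They are not the background of counts after scaling. There the median change of all genes was -0.01 (median-of-ratios) and -0.05 (quantile). Shares of all genes called after scaling are not given for any comparison. The share of calls that were rises was 66.1% among members on TPM, 79.1% after median-of-ratios scaling (53 higher, 14 lower) and 75.8% after quantile normalization (50 higher, 16 lower). The F test over the 5 stages called 67 of 80 members, against 82.9% of all genes. The 13 that it did not call were Lamtor1, Lamtor2, Lamtor3, Lamtor5, Vps16, Vps18, Vps35, Vps36, Vps37c, Vps39, Snx3, Snx4 and Snx29.

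**Figure D1:**
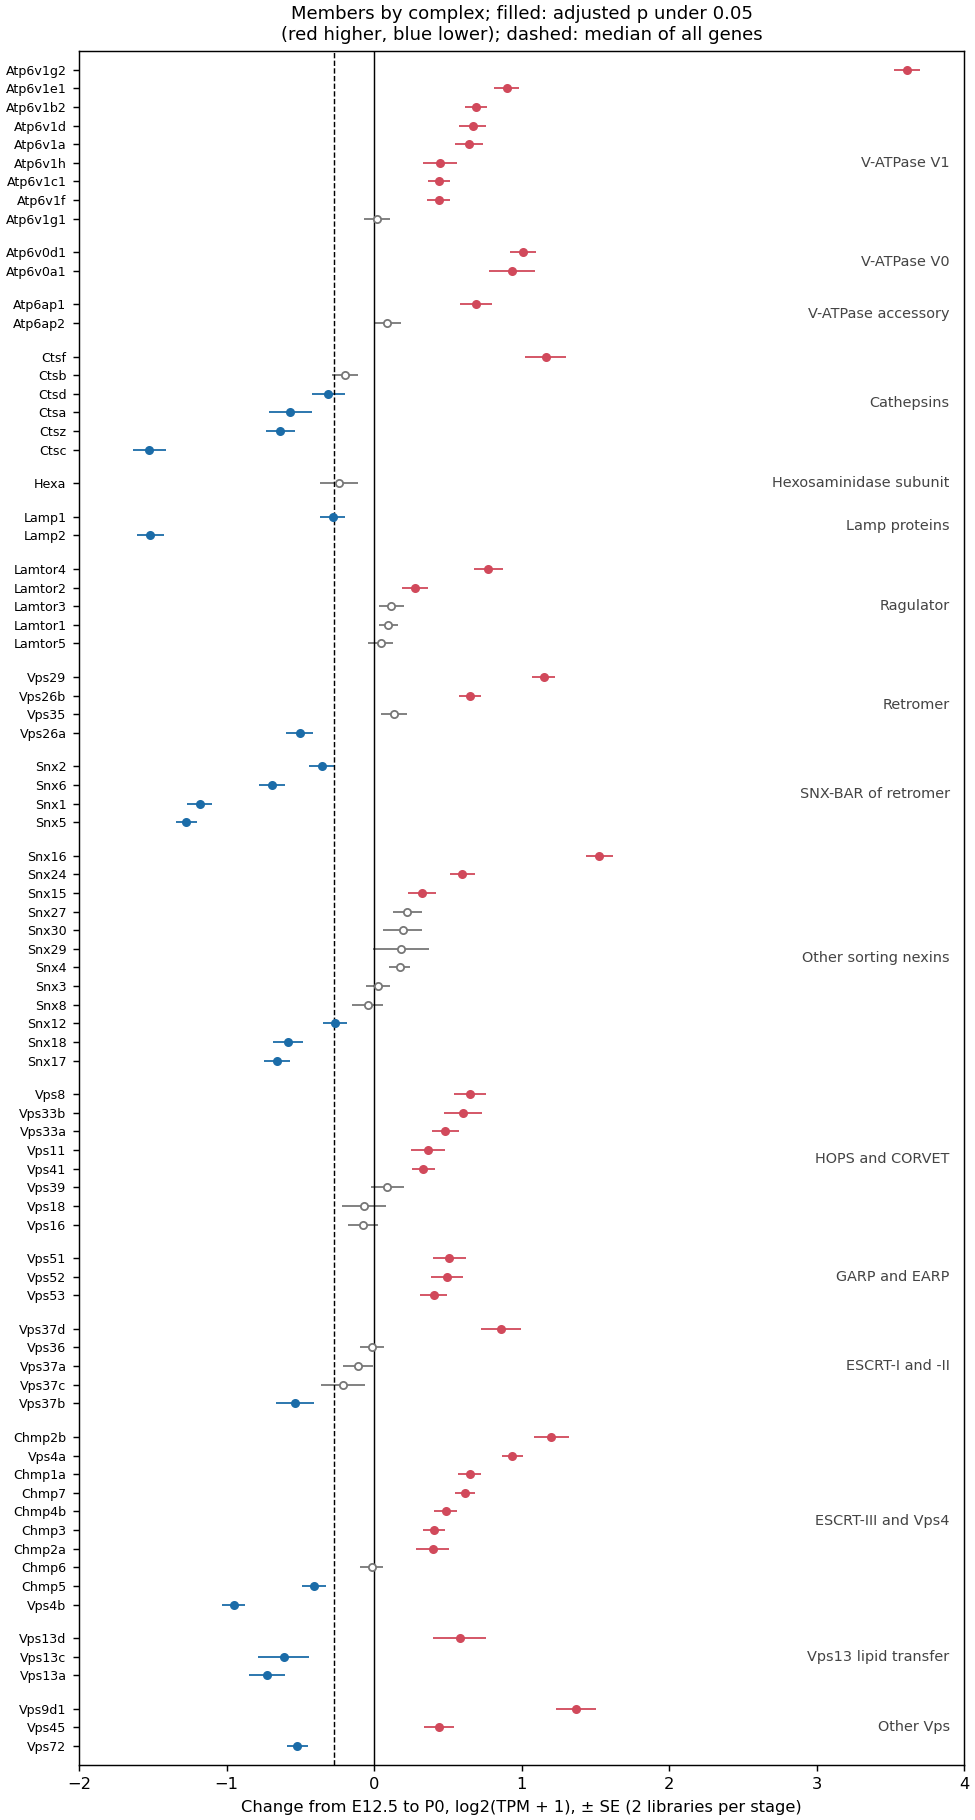
Change of 79 of the 80 tested members from E12.5 to P0 on the log2(TPM + 1) scale (horizontal axis), with the standard error as a bar, grouped by complex; filled points were called (red higher, blue lower) and the dashed line is the median of all genes. All 13 V-ATPase points lie at or right of 0, all 4 SNX-BAR points lie left of it, and Atp6v1g2 stands apart at 3.61.

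Many genes of this system share a promoter element, the CLEAR motif, read by the transcription factor TFEB and its relatives. Its core is TCACGTGA, its full form has a further G before and C after the core, and CACGTG, the general E-box, lies at the centre. Each form reads the same on both strands, and the shorter ones lie inside the longer. RefSeq promoter windows (GRCm38.p6, 250 bases before to 50 after each start) were matched by symbol for 57 of the 81 members. The full motif occurred in 3 of these 57 genes (5.26%), against 1.03% of the listed genes with a window and 0.37% of all genes with one. The core occurred in 7 (12.3%), against 2.52% and 1.12%, and the E-box in 14 (24.6%), against 12.4% and 8.09%. All matches of the core in members are shown, in stretches of 60 bases (30 where the motif crosses or follows the start), because the genes that carry them took different courses. Capitals mark the core or, where present, the full motif.
Atp6v0d1, chr8:105566050-105566079, minus strand: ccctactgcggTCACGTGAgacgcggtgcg
Atp6v1a, chr16:44139358-44139417, minus strand: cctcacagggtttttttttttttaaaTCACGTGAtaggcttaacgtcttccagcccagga
Vps33a, chr5:123573016-123573075, minus strand: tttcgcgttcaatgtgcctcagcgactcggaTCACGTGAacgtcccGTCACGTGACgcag
Ctsa, first of its matches, chr2:164833713-164833772, plus strand: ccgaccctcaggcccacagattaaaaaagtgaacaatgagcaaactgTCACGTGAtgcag
Ctsa, the other match, in a stretch that opens with the last bases of the first core, chr2:164833766-164833795, plus strand: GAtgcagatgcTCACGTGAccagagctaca
Ctsd, chr7:142387893-142387952, minus strand: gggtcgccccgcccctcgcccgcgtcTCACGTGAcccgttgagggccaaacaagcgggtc
Vps26a, first of its windows, chr10:62486717-62486776, minus strand: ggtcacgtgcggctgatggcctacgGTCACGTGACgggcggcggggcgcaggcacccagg
Vps26a, the other window, chr10:62486955-62487014, minus strand: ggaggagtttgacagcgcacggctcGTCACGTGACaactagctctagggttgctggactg
Vps16, chr2:130424260-130424319, plus strand: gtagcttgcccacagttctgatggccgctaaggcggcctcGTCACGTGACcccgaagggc
The first 3 of these genes rose from E12.5 to P0 (Atp6v0d1 by 1.01, Atp6v1a by 0.64 and Vps33a by 0.48), the next 3 fell (Ctsa by 0.57, Ctsd by 0.31 and Vps26a by 0.51), and Vps16 changed by -0.08 with an adjusted p of 0.495. The calls of the 3 genes that rose held under every alternative. After median-of-ratios scaling the falls of Ctsd (-0.04) and Vps26a (-0.23) were no longer called. A match describes letters in the window and was not measured as a binding site.

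The V-ATPase genes that were measured rose as a group between E12.5 and P0. They were 9 of 13 listed genes of the soluble V1 sector, 2 of 9 of the membrane sector V0 and 2 of 3 accessory genes. Most V0 genes were thus not measured. Of 13 tested, 11 were called higher and 0 lower, against 27.1% and 51.0% of all genes. The median change of the 13 was 0.67 on TPM, 0.77 after quantile normalization and 0.94 after median-of-ratios scaling. Their summed level was 1498 ± 11.2 TPM (E12.5) and 2256 ± 44.4 TPM (P0) (SD, n = 2). The count of 11 was the same with any of the 10 libraries left out. Of the 9 neuron markers in the table, of 11 listed, 8 were called higher from E12.5 to P0 and Bcl11b was called lower (-0.615). Their summed level was 2767 and 2790 TPM (E12.5), 7823 and 7941 TPM (E15.5), and 9197 and 9976 TPM (P0). Their part in the V-ATPase result was not tested.

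The pump's soluble V1 sector hydrolyses ATP on a ring of A and B subunits. Atp6v1a, the A subunit, stood at 71.7 and 73.8 TPM (E12.5) and at 102 and 128 TPM (P0), a rise of 0.64 ± 0.10 (SE; adjusted p = 8.59e-05). Atp6v1b2, the B subunit, went from 101 and 106 TPM to 161 and 174 TPM, a rise of 0.69 ± 0.08 (adjusted p = 5.74e-06). Both P0 libraries lay above both E12.5 libraries for each of these genes. The central stalk subunits Atp6v1d and Atp6v1f rose by 0.67 and 0.44, and Atp6v1c1 and Atp6v1h, which help join or regulate the sectors, by 0.44 and 0.45. Atp6v1e1, a subunit of the peripheral stalks that hold the ring still, rose by 0.90, from 149 and 157 TPM to 285 and 287 TPM.

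The G subunit, partner of E in the peripheral stalk, comes from paralogous genes, and these took unlike courses. Atp6v1g2, the form known to be enriched in neurons, lies on chromosome 17 at 35233660 to 35238767 (GENCODE M21, GRCm38), where it overlaps Nfkbil1 on the other strand. Its libraries read 15.4 and 14.2 TPM (E12.5), 27.7 and 25.0 (E14), 67.7 and 61.9 (E15.5), 100.3 and 103.6 (E17), and 193 and 191 (P0). Both libraries of each stage were above both of the stage before. The rise from E12.5 to P0 was 3.61 ± 0.09 on the log2 scale (adjusted p = 2.77e-11), the highest among members, and Atp6v1g2 was the 1 member called at all 4 steps between neighbouring stages, by 0.79, 1.27, 0.65 and 0.91. Atp6v1g1, the widely expressed form and the most abundant member, read 541 and 510 TPM (E12.5), 618 and 613 (E14), 626 and 620 (E15.5), 503 and 585 (E17), and 548 and 518 (P0). Its E12.5 and P0 libraries overlapped, and its change was 0.02 (95% interval -0.17 to 0.21, adjusted p = 0.842); the estimate was -0.02 without E12.5 replicate 2 or without P0 replicate 1, and 0.30 after median-of-ratios scaling, where it was called. As a share of the summed level of the pair, Atp6v1g2 was 2.74% ± 0.046 (E12.5), 9.42% ± 0.48 (E15.5) and 26.5% ± 0.655 (P0) (SD, n = 2). Median-of-ratios scaling leaves this ratio within a library unchanged, and quantile normalization need not.

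The membrane sector V0 was represented by Atp6v0d1, which couples it to the central stalk, and Atp6v0a1, which forms part of the proton path. Atp6v0d1 read 109 and 114 TPM (E12.5), 137 and 125.4 (E14), 184 and 180 (E15.5), 178 and 178 (E17), and 246 and 205 (P0), and rose by 1.01 ± 0.09 (adjusted p = 8.67e-07). Atp6v0a1 stayed between 29.7 and 36.6 TPM in the 6 libraries up to E15.5 and read 71.6 and 50.5 TPM at E17 and 66.4 and 53.2 TPM at P0. The 4 later libraries did not overlap the 6 earlier ones. Of the accessory glycoproteins needed for pump assembly, Atp6ap1 rose by 0.69 ± 0.11, and Atp6ap2 changed by 0.09 ± 0.09 (adjusted p = 0.392), with overlapping libraries; the latter estimate was -0.03 without P0 replicate 1, and after quantile normalization and median-of-ratios scaling it was 0.23 and 0.36, both called.

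**Figure D2:**
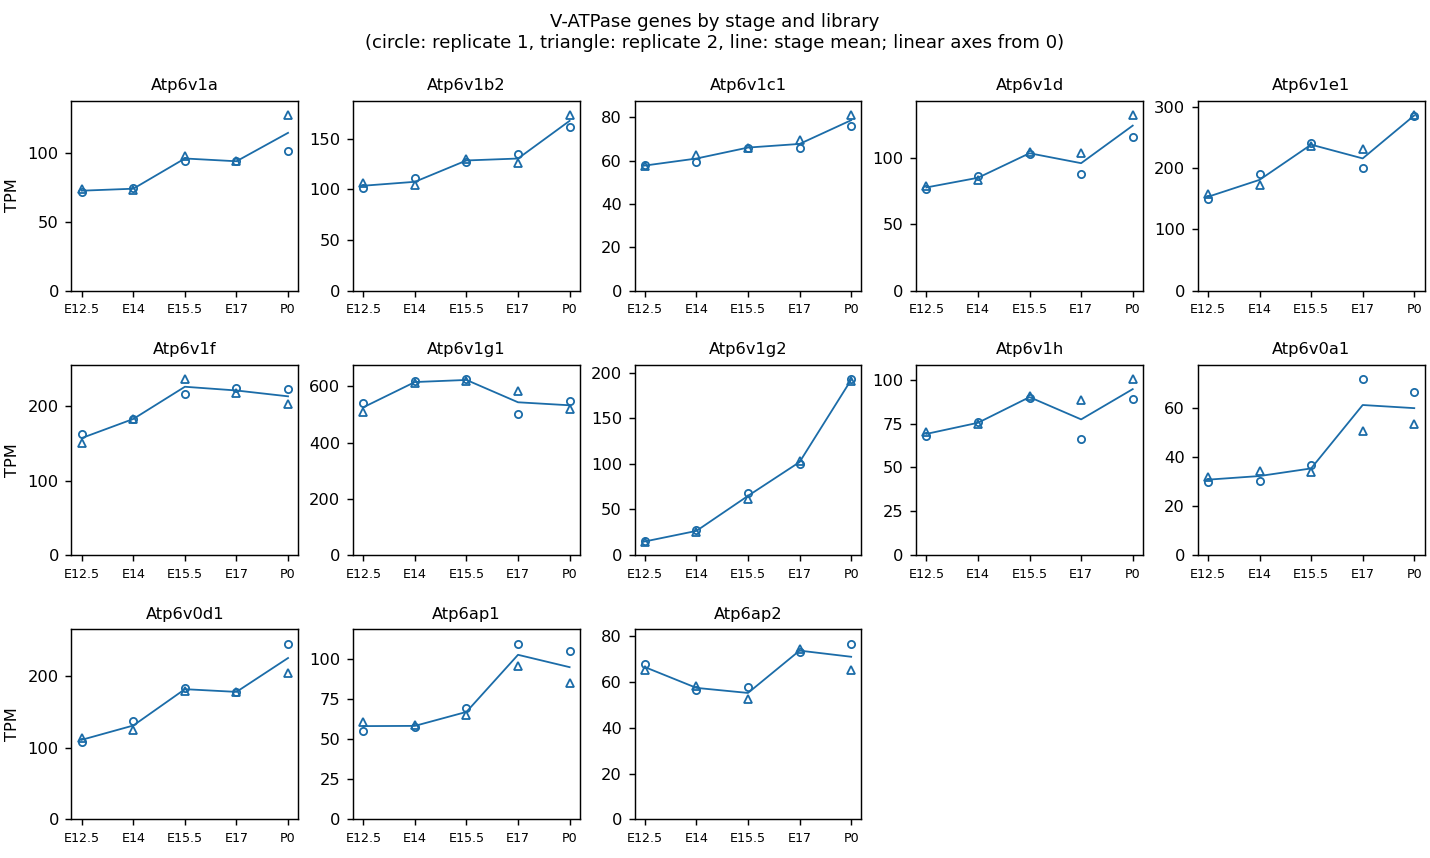
TPM (vertical axes, from 0) of the 13 V-ATPase genes at the 5 stages (horizontal axes); circles are replicate 1, triangles replicate 2, and lines join stage means. Atp6v1g2 climbs at each stage to about 192 TPM, Atp6v1g1 stays between 503 and 626 TPM, and Atp6v0a1, Atp6ap1 and Atp6ap2 read higher from E17 on than at E15.5.

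By step, 7 V-ATPase genes were called higher between E14 and E15.5 (18.4% of all genes were), 4 in the step that ended at E17 (14.4%) and 7 in the step that ended at P0 (12.9%), and 0 were called lower at any step. Without E17 replicate 2 the counts were 4 higher and 4 lower into E17 and 8 higher out of it, and without replicate 1 they were 4 and 6 higher, with 0 lower. From E14 to E15.5 these were Atp6v1a, Atp6v1b2, Atp6v1d, Atp6v1e1, Atp6v1f, Atp6v1g2 and Atp6v0d1, by 0.26 to 1.27. The 4 called from E15.5 to E17 were Atp6v0a1 (0.76), Atp6v1g2 (0.65), Atp6ap1 (0.60) and Atp6ap2 (0.41). In the same order these were 0.51, 0.67, 0.51 and 0.42 without E17 replicate 1 and 1.0, 0.62, 0.70 and 0.40 without replicate 2, all called. Apart from Atp6v1g2 these encode membrane-spanning proteins. Without E15.5 replicate 2 the calls of Atp6v0a1 (0.70, adjusted p = 0.056) and Atp6ap2 (0.34) were lost. From E17 to P0 Atp6v1g2 and Atp6v1e1 (0.91 and 0.41) were called with any library left out, at 0.89 and 0.30 without E17 replicate 1 and 0.93 and 0.52 without replicate 2.

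Regulators of V-ATPase assembly were read from a list of 10 genes, of which 7 were tested. Wdr7, a subunit of the rabconnectin complex that helps V1 dock onto V0, rose by 0.90 ± 0.11, from a mean of 16.8 TPM (E12.5) to 32.2 TPM (P0). The rabconnectin paralogs Dmxl2 and Dmxl1 differed: Dmxl2 rose by 0.71 (12.3 to 20.8 TPM) and Dmxl1 fell by 0.38 (8.33 to 6.24 TPM, adjusted p = 0.0369). The Dmxl1 call was lost after median-of-ratios scaling (-0.14), turned to 0.16 after quantile normalization, and was lost without either E12.5 library (-0.35 and -0.40), either E15.5 library (-0.38 for each) or P0 replicate 1 (-0.19). In the list 2 genes were called higher and 2 lower on TPM, 4 higher and 0 lower after quantile normalization, and 5 higher and 0 lower after median-of-ratios scaling.

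The hydrolases and Lamp proteins that were measured did not rise as a group. Of 18 listed cathepsins only 6 were among them. Of 10 tested from E12.5 to P0, 2 were called higher and 6 lower, near the 27.1% and 51.0% of all genes. The median change of the 10 was -0.30 on TPM, against -0.27 for all genes. It was -0.18 after quantile normalization and -0.02 after median-of-ratios scaling, against -0.05 and -0.01 for all genes. The summed level of the 10 was 557 ± 13.2 TPM at the first stage and, in order, 506 ± 3.02, 415 ± 15.2, 524 ± 26.8 and 442 ± 49.9 TPM at the later ones (SD, n = 2). Without P0 replicate 2 the count of calls was 5 in place of 8: Ctsa (-0.40), Ctsd (-0.15) and Lamp1 (-0.18) were lost. The difference between the classes in their changes was not tested.

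Lamp2 and Ctsc fell furthest among the members, each by 1.52 on the log2 scale. Over the 19 alternatives the change of Lamp2 ran from -1.57 to -1.16 and that of Ctsc from -2.04 to -0.46. Ctsc ended near the pseudocount of 1 TPM, so the size of its fall depends on that choice. Lamp2, a heavily glycosylated membrane protein that autophagosomes need in order to fuse with lysosomes, read 50.7 and 47.9 TPM (E12.5), 41.6 and 44.5 (E14), 23.2 and 21.4 (E15.5), 24.0 and 22.3 (E17), and 16.7 and 16.5 (P0). The libraries up to E14 all lay above those from E15.5 on, and the fall at that step was 0.92 (adjusted p = 9.81e-06). Ctsc, a dipeptidyl peptidase best known for activating the granule proteases of immune cells, read 5.24 and 5.83 TPM (E12.5), 4.41 and 4.22 (E14), 1.503 and 1.354 (E15.5), 1.56 and 1.66 (E17), and 1.40 and 1.15 (P0). Its fall from E14 to E15.5 was 1.13 (adjusted p = 9.25e-06), again with no overlap.

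Tested markers of microglia and macrophages, vessels, meninges and choroid plexus fell at the same step, while those of astrocytes were split. Of 23 microglia and macrophage markers 2 were in the table: C1qb, a complement component, read 8.93 and 7.21 TPM at E14 and 4.93 and 4.66 TPM at E15.5 (a fall of 0.64, adjusted p = 0.00127), and Mrc1, a receptor of border macrophages, read 2.07 and 2.44 TPM and then 0.163 and 0.140 TPM. After quantile normalization the C1qb change was -0.33 and not called. At P0 C1qb was back at 7.81 and 7.07 TPM, while Lamp2 and Ctsc were not back at their E14 levels. The summed level of 3 vascular markers of 14 listed was 24.0 and 25.1 TPM at E14 and 4.25 and 4.28 TPM at E15.5, that of 6 meningeal markers of 8 was 289.7 and 269.9 TPM and then 93.5 and 90.6 TPM, and that of 2 choroid plexus markers of 8 was 1405 and 1517 TPM and then 3.46 and 4.25 TPM. Erythroid markers, 3 in the table of 11 listed, were all called lower. Of 6 astrocyte markers in the table, of 9 listed, 3 were called higher, namely Aldh1l1 (2.28), Gfap (0.70) and Sparcl1 (0.29), and 2 lower, Apoe (-1.07) and Aldoc (-0.78); their summed level was 373 and 333 TPM at E14 and 229 and 233 TPM at E15.5. No microglia, vascular, meningeal, choroid plexus or astrocyte marker in the table was at 0 in any library. The part of these cells in the falls of Lamp2, Ctsc and the other hydrolases was not tested.

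The other cathepsins changed less. Ctsz, a carboxypeptidase, fell by 0.64 ± 0.10 from E12.5 to P0. Its mean was 44.8 TPM (E12.5), 40.6 (E14), 35.1 (E15.5) and 41.4 (E17). It was called at 1 step, the last, where it fell from 41.5 and 41.3 TPM at E17 to 31.3 and 25.9 TPM at P0. Ctsa, which also protects galactosidase and neuraminidase, fell by 0.57 ± 0.15. Ctsd, the main aspartic protease of lysosomes, fell by 0.31 ± 0.11 (adjusted p = 0.0231); this call was lost after quantile normalization (-0.06), after median-of-ratios scaling (-0.04), and without E12.5 replicate 2 (-0.24) or P0 replicate 2. Ctsd also overlaps a coding gene model on its own strand, so its reads may be shared. Ctsb, the most abundant of the 6 cathepsins measured, read 162 and 171 TPM (E12.5) and 155.4 and 134.9 TPM (P0). Its change was -0.20 (adjusted p = 0.0635) on TPM and 0.08 after median-of-ratios scaling. Without either E17 library, or without P0 replicate 1, it was called (-0.20, -0.20 and -0.30).

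Ctsf went against the other cathepsins. This cysteine protease, mutated in a form of neuronal ceroid lipofuscinosis, read 6.003 and 6.858 TPM (E12.5), 8.80 and 8.37 (E14), 12.2 and 12.3 (E15.5), 20.5 and 16.4 (E17), and 17.5 and 13.9 (P0). The P0 libraries lay above both E12.5 libraries, with a rise of 1.16 ± 0.14 (adjusted p = 1.01e-05). Hexa, the α subunit of β-hexosaminidase, which degrades GM2 ganglioside, changed by -0.24 (95% interval -0.52 to 0.04, adjusted p = 0.107), with libraries of 15.05 and 17.09 TPM and of 15.4 and 11.7 TPM that overlapped. Hexa turned to 0.14 after quantile normalization and 0.02 after median-of-ratios scaling, and was called at -0.24 without either E17 library and at -0.43 without P0 replicate 1. Lamp1, the more abundant Lamp protein at 131 to 188 TPM, fell by 0.28 ± 0.08, which became -0.01 and was no longer called after median-of-ratios scaling.

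**Figure D3:**
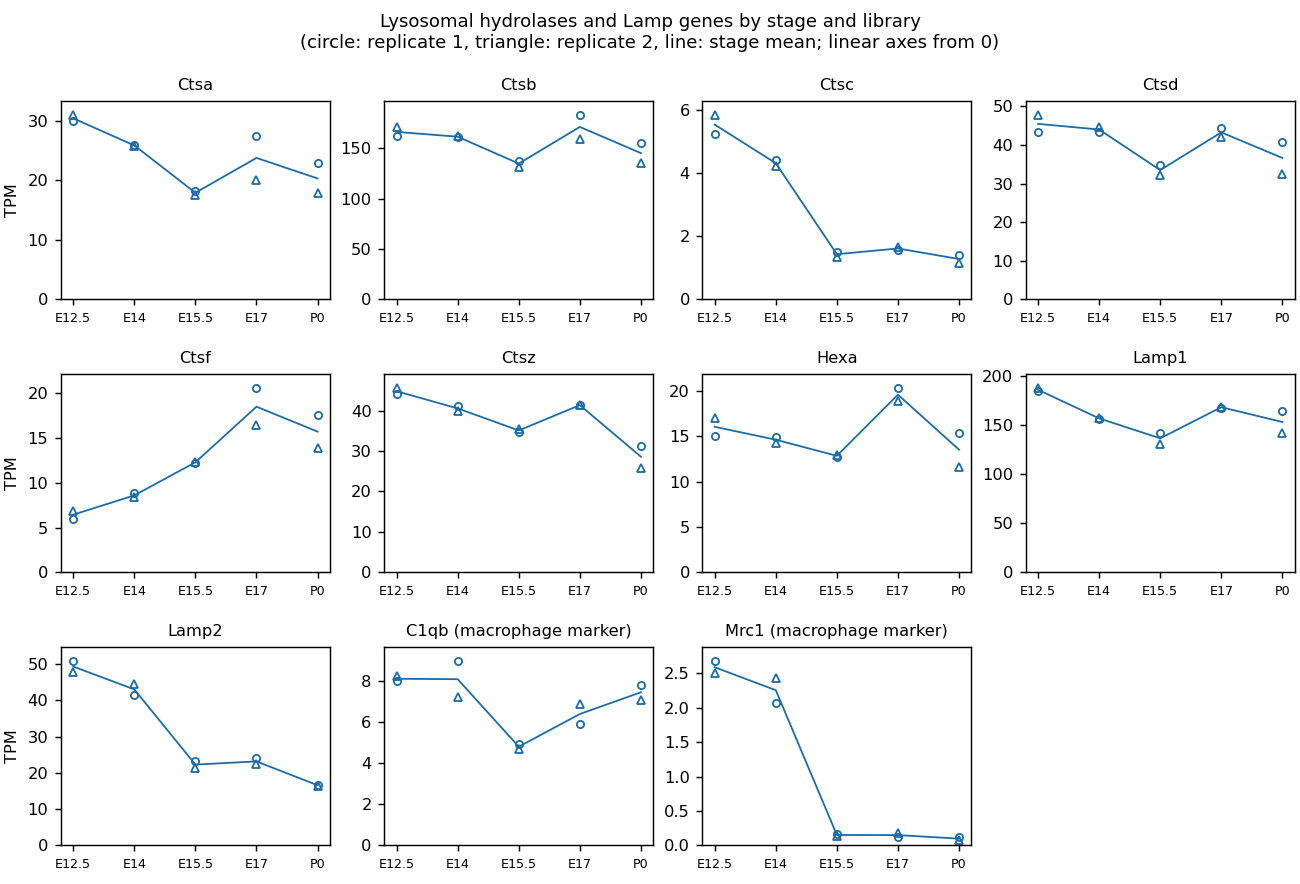
TPM (vertical axes, from 0) of 7 hydrolase genes, Lamp1, Lamp2 and the macrophage markers C1qb and Mrc1 at the 5 stages; circles are replicate 1, triangles replicate 2, and lines join stage means. Lamp2, Ctsc and Mrc1 drop between E14 and E15.5 and stay low, C1qb drops at that step and is higher again at P0, and Ctsf reads highest at E17.

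From E15.5 to E17 the direction of the hydrolases was upward: all 10 estimates were positive, with a median of 0.35 against 0.01 for all genes. Of the 10, 6 were called higher, against 14.4% of all genes. Among them were Hexa (0.57), Ctsf (0.55), Ctsd (0.36), Ctsb (0.34) and Lamp1 (0.30). The call of Ctsd was lost under 9 of the 19 alternatives, and those of Hexa, Ctsf, Ctsb and Lamp1 under 3 each. Called counts were 6 without E17 replicate 1 and 7 without E17 replicate 2, and the 5 named genes were called in both cases, at 0.52, 0.39, 0.32, 0.24 and 0.31 and at 0.62, 0.70, 0.40, 0.44 and 0.30. The calls of these 5 genes were lost without E15.5 replicate 1 (0.56 for Hexa, 0.54 for Ctsf, 0.41 for Ctsd, 0.37 for Ctsb and 0.36 for Lamp1) and without E15.5 replicate 2 (0.58, 0.55, 0.31, 0.31 and 0.24). In the step before, E14 to E15.5, Ctsf was called higher (18.4% of all genes were) and Ctsa, Ctsb, Ctsc, Ctsd and Lamp2 lower (33.3%), of which Ctsc and Lamp2 were called with any library left out. In the last step, Ctsz, Hexa and Lamp2 were called lower, by 0.52, 0.51 and 0.46, against 28.8% of all genes. They fell by 0.52, 0.47 and 0.41 without E17 replicate 1, and by 0.53, 0.56 and 0.51 without replicate 2, where 7 of the 10 were called lower. Hexa's call was lost without P0 replicate 2 (-0.33) and after quantile normalization (-0.28).

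Beyond the members, 28 of 39 other lysosomal enzymes and activators on a list drawn up for this purpose were tested. From E12.5 to P0, 5 were called higher and 19 lower (51.0% of all genes were lower), with a median of -0.50. The highest change was that of Ids, the iduronate sulfatase that starts heparan and dermatan sulfate breakdown, at 2.02 ± 0.07 (mean 116 TPM at E12.5, 477 TPM at P0). The lowest was that of Tpp1, a tripeptidyl peptidase, at -1.79 ± 0.13 (20.3 to 5.18 TPM). Of 6 other lysosomal membrane and luminal carrier proteins, 3 rose and 3 fell, from Arl8a, a GTPase that moves lysosomes along microtubules, at 2.06 (227 to 951 TPM) to Npc2, a cholesterol carrier, at -1.16 (452 to 202 TPM).

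Of 18 receptors and adaptors that deliver hydrolases, 4 were called higher and 9 lower, a share near the 51.0% of all genes called lower, and their median of -0.17 lay above the -0.27 of all genes. The mannose 6-phosphate receptors Igf2r and M6pr fell by 1.86 ± 0.17 (16.0 to 3.67 TPM) and 1.14 ± 0.12 (91.9 to 41.2 TPM). Ap3b2, the neuronal β subunit of the AP-3 adaptor, had the highest change of this list, at 1.73 ± 0.09 (11.5 to 40.6 TPM). Phosphoinositide kinases and fusion factors of the endosome were called higher in 4 of 12 and lower in 4. Stx7, a late endosomal SNARE, rose by 1.52 (136 to 393 TPM). Pik3r4, a subunit of the class III phosphoinositide 3-kinase, fell by 0.57, a call lost after quantile normalization (-0.02).

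The Ragulator, a pentamer on the lysosomal surface that holds the Rag GTPases and so recruits the growth-control kinase complex mTORC1, changed little on TPM. From E12.5 to P0 Lamtor4 rose by 0.77 ± 0.10, from 92.7 and 85.7 TPM to 162 and 144 TPM, and Lamtor2 rose by 0.28 ± 0.09, from 123 and 116 TPM to 144 and 146 TPM. The Lamtor2 call was lost without E12.5 replicate 2 (0.23) or P0 replicate 2 (0.27). Lamtor1, the lipid-anchored subunit, read 176 to 196 TPM over the 10 libraries and changed by 0.10 (95% interval -0.05 to 0.24). Lamtor3 and Lamtor5 changed by 0.12 and 0.04. All 5 were called higher after median-of-ratios scaling, where their median was 0.39 in place of 0.12. Of 13 other tested genes of mTORC1 signalling at the lysosome, 1 was called higher and 5 lower, against 27.1% and 51.0% of all genes. Changes in this list ran from 0.50 for Rheb, the GTPase that activates mTORC1, to -1.16 for Seh1l. Seh1l is a subunit of the GATOR2 complex that also serves the nuclear pore.

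The genes of endosomal sorting split in both directions. Of 52 tested from E12.5 to P0, 24 were called higher and 14 lower, against 27.1% and 51.0% of all genes. The median of the 52 was 0.19. After median-of-ratios scaling 33 of them were called higher and 10 lower, with a median of 0.45. Their summed level was 3641 ± 8.05 TPM (E12.5) and 4140 ± 37.1 TPM (P0) (SD, n = 2). Both directions occurred within complexes, also between paralogs.

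Of the 4 retromer genes tested 2 were called higher and 1 lower from E12.5 to P0, and of the 4 sorting nexins that work with it 0 were called higher and 4 lower. The difference between these groups was not tested. Retromer's cargo-selective core is made of Vps35, Vps29 and a Vps26 protein, and its summed level was 405 ± 2.75 TPM (E12.5) and 593 ± 35.0 TPM (P0). The SNX-BAR proteins, Snx1 or Snx2 paired with Snx5 or Snx6, curve the membrane into tubules, and their summed level was 361 ± 7.89 TPM (E12.5), 231 ± 1.89 (E15.5) and 189 ± 11.2 (P0) (SD, n = 2).

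Of the core, Vps29 read 100.4 and 95.8 TPM (E12.5), 108 and 109 (E14), 139 and 144 (E15.5), 162 and 179 (E17), and 210 and 228 (P0), with no overlap between neighbouring stages from E14 on. It rose by 1.15 ± 0.08 (adjusted p = 8.28e-08). Vps35, the scaffold, read 57.5 to 78.6 TPM over the 10 libraries and changed by 0.13 (95% interval -0.06 to 0.33, adjusted p = 0.187); it was called at 0.27 and 0.41 after quantile normalization and median-of-ratios scaling, and at 0.24 without P0 replicate 1. The Vps26 paralogs moved apart. Vps26b read 146 and 159 TPM (E12.5), 162 and 152 (E14), 212 and 214 (E15.5), 212 and 204 (E17), and 234 and 245 (P0), a rise of 0.65 ± 0.07 (adjusted p = 7.8e-06). Vps26a read 88.5 and 85.8 TPM, 84.7 and 86.6, 71.2 and 73.4, 60.7 and 67.1, and 56.5 and 66.0 at the same stages, a fall of 0.51 ± 0.09 (adjusted p = 0.00028), which became -0.23 after median-of-ratios scaling (adjusted p = 0.0503). Vps26b made up 63.6% ± 1.85 of the pair at E12.5 and 79.7% ± 1.24 at P0.

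All 4 SNX-BAR genes were called lower at P0, where 51.0% of all genes were. Snx5 read 145 and 136 TPM (E12.5), 119 and 115 (E14), 68.9 and 66.8 (E15.5), 64.5 and 67.2 (E17), and 57.5 and 57.5 (P0), and fell by 1.27 ± 0.07 (adjusted p = 1.82e-08). Most of this came between E14 and E15.5, a fall of 0.78. Snx1 read 63.7 and 70.2 TPM, 67.1 and 64.3, 50.9 and 51.2, 43.1 and 40.8, and 27.9 and 29.9 at the 5 stages, and fell by 1.18 ± 0.09 (adjusted p = 1.31e-07). Its largest fall came later than that of Snx5. Snx1 fell by 0.36 from E14 to E15.5, by 0.28 from E15.5 to E17 and by 0.52 from E17 to P0 (the last 0.48 and 0.56 without E17 replicates 1 and 2). The call from E15.5 to E17 (adjusted p = 0.0351) was lost under 8 of the 19 alternatives, which gave changes of -0.32 to -0.23. Snx6 fell by 0.69 ± 0.09. Snx2 fell by 0.35 ± 0.09, a call lost after quantile normalization (-0.12) and median-of-ratios scaling (-0.08). Markers of neural progenitors moved with these genes. Of 8 in the table, of 11 listed, 6 were called lower from E12.5 to P0, among them Sox2 (-1.81), Nes (-2.93), Vim (-2.78) and Pax6 (-3.12), and Fabp7 (0.94) and Slc1a3 (0.22) were called higher. From E14 to E15.5 the same 4 fell by 0.85, 0.96, 0.88 and 1.09, with 6 of the 8 called lower and 1 higher. The summed level of the 8, of which Fabp7 is the largest part, was 2197 and 2232 TPM (E12.5), 1948 and 2029 TPM (E15.5) and 1655 and 1686 TPM (P0), and none was at 0 in any library. The part of progenitors in the falls of the SNX-BAR genes was not tested.

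Among partners of retromer, including the actin-nucleating WASH complex and the COMMD proteins, 5 of 14 were called higher and 4 lower. Tbc1d5, a GTPase-activating protein for Rab7 that binds retromer, rose by 1.87 ± 0.11 (11.7 to 45.3 TPM), and Ccdc93 had the lowest change at -0.56.

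Of the 12 other sorting nexins tested, of 26 listed, 3 were called higher and 3 lower. Snx16, a late endosomal nexin, read 17.1 and 16.8 TPM (E12.5), 20.1 and 19.5 (E14), 38.7 and 34.8 (E15.5), 37.8 and 40.7 (E17), and 49.1 and 52.5 (P0). The E15.5 libraries lay above all earlier ones, and the rise over the interval was 1.53 ± 0.09 (adjusted p = 3.2e-08). Snx24 rose by 0.60 and Snx15 by 0.32, the latter call being lost without E12.5 replicate 2 (0.22). Snx17, which retrieves receptors of the LDL receptor family, fell by 0.66 ± 0.09, and Snx18 by 0.59 ± 0.10. Snx12 fell by 0.26; the call was lost without E12.5 replicate 1 (-0.24) or P0 replicate 1 (-0.20), and the estimate was 0.01 after median-of-ratios scaling. Snx3, the most abundant nexin at 223 to 283 TPM, changed by 0.03 (adjusted p = 0.761), with overlapping libraries; without P0 replicate 1 the estimate was -0.09, and after median-of-ratios scaling 0.30, called.

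Snx8 ended near where it began but not by staying level. It read 21.2 and 22.4 TPM (E12.5), 18.9 and 17.8 (E14), 13.1 and 11.9 (E15.5), 14.3 and 13.5 (E17), and 22.6 and 19.7 (P0). The libraries at E15.5 and E17 lay below all others, with a fall of 0.52 from E14 to E15.5 (adjusted p = 0.00181) and a rise of 0.57 from E17 to P0 (adjusted p = 0.00193), which was 0.61 and 0.53 without E17 replicates 1 and 2. Both calls held with any library left out. The E12.5 to P0 estimate of -0.04 was not called, and turned to 0.26 after quantile normalization, 0.22 after median-of-ratios scaling and 0.05 without P0 replicate 2.

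**Figure D4:**
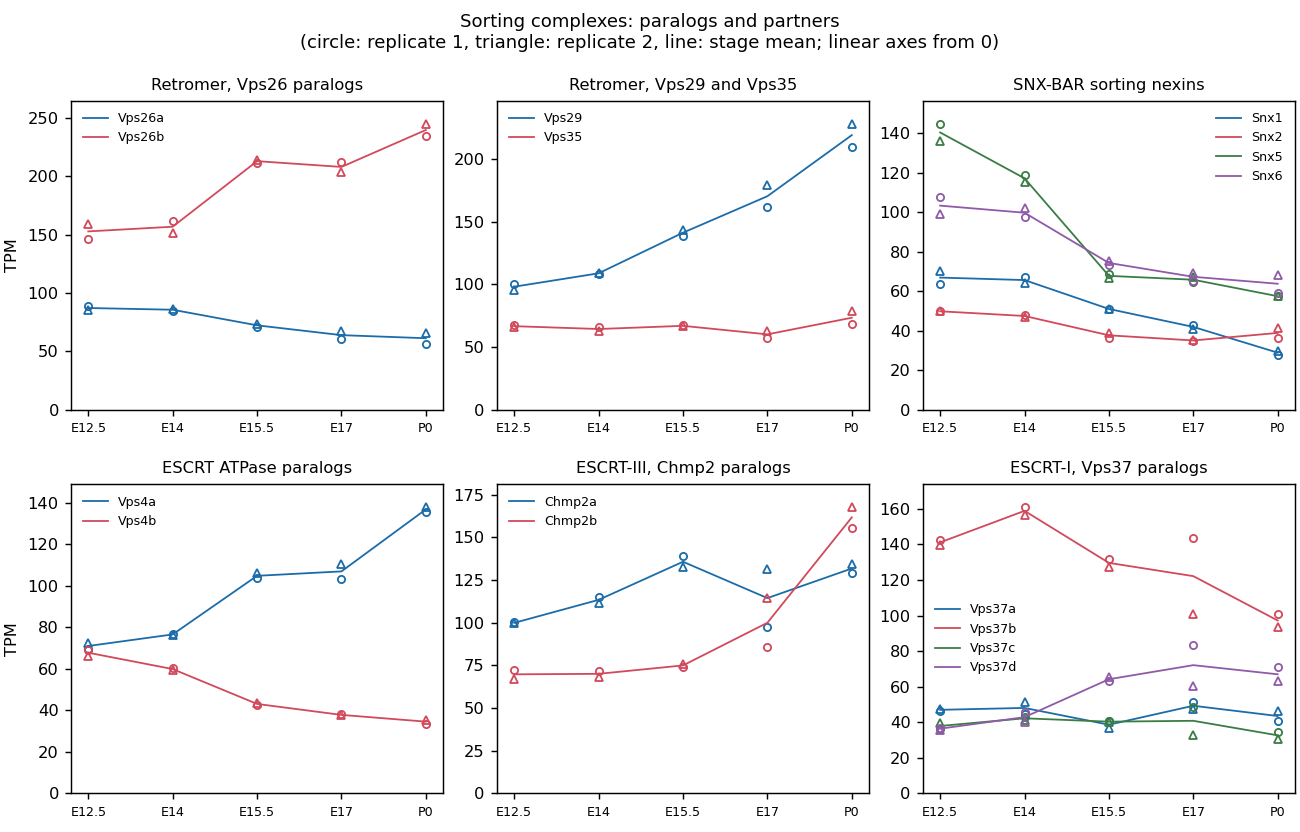
TPM (vertical axes, from 0) of retromer, SNX-BAR and ESCRT genes at the 5 stages, with paralogs or partners in one panel; circles are replicate 1, triangles replicate 2, and lines join stage means. Vps26a and Vps26b, and Vps4a and Vps4b, draw apart with age, the 4 SNX-BAR genes decline, and Chmp2b passes Chmp2a at P0.

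ESCRT-III and its recycling ATPase had calls in both directions. Chmp proteins polymerise into the filaments that sever membrane necks, and Vps4 takes the filaments apart. Of these 10 genes 7 were called higher and 2 lower from E12.5 to P0, against 27.1% and 51.0% of all genes. The summed level of the 10 was 1245 ± 2.38 TPM (E12.5) and 1668 ± 8.86 TPM (P0) (SD, n = 2). Chmp1a, the most abundant at 219 to 364 TPM, rose by 0.65 ± 0.08. Chmp7, which also acts at the nuclear envelope, Chmp4b, Chmp3 and Chmp2a rose by 0.62, 0.48, 0.40 and 0.40; the Chmp2a call was lost without P0 replicate 2 (0.36). Chmp5 fell by 0.41 ± 0.08, a call lost after median-of-ratios scaling (-0.13). Chmp6 changed by -0.02, with overlapping libraries, and this turned to 0.11 after quantile normalization, 0.26 after median-of-ratios scaling and 0.02 without P0 replicate 2.

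Chmp2b, mutated in a familial frontotemporal dementia, read 72.5 and 67.0 TPM (E12.5), 71.9 and 68.1 (E14), 73.8 and 76.0 (E15.5), 85.7 and 114 (E17), and 156 and 168 (P0). It was level to E15.5 and then rose, by 0.70 from E17 to P0 (adjusted p = 0.000871; 0.50 and 0.91 without E17 replicates 1 and 2) and by 1.20 ± 0.12 over the whole interval (adjusted p = 1.71e-06). It made up 41.1% ± 1.23 of the Chmp2 pair at E12.5, 35.6% ± 1.28 (E15.5) and 55.1% ± 0.554 (P0).

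The ATPase paralogs started level and ended apart. Vps4a read 69.4 and 72.5 TPM (E12.5), 77.0 and 76.1 (E14), 104 and 106 (E15.5), 103 and 111 (E17), and 136 and 138 (P0), a rise of 0.94 ± 0.07 (adjusted p = 2.26e-07). Vps4b read 69.2 and 66.2 TPM, 60.2 and 59.6, 42.6 and 43.5, 38.0 and 37.6, and 33.6 and 35.5 at the same stages, a fall of 0.95 ± 0.08 (adjusted p = 4.33e-07). Vps4a thus made up 51.2% ± 1.55 of the pair at E12.5, 70.9% ± 0.021 (E15.5) and 79.8% ± 0.455 (P0), while the summed level of the pair was 139 TPM and 171 TPM at the ends. Vps4a overlaps Pdf on the other strand.

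In ESCRT-I and ESCRT-II, which bind ubiquitinated cargo upstream of ESCRT-III, 5 members were tested and 2 were called. Vps37d rose by 0.86 ± 0.13, from 37.0 and 35.7 TPM to 70.8 and 63.1 TPM, and its paralog Vps37b fell by 0.53 ± 0.13, from 143 and 140 TPM to 101 and 93.4 TPM. Vps37d was 20.5% ± 0.179 of this pair at E12.5 and 40.8% ± 0.610 at P0. Vps36, Vps37a and Vps37c changed by -0.02, -0.11 and -0.21 and were not called; all 3 estimates were positive after quantile normalization and after median-of-ratios scaling, and Vps37c was called at -0.21 without either E17 library. Of 16 other ESCRT proteins, 6 were called higher and 6 lower, against 27.1% and 51.0% of all genes. In this list the highest and lowest changes were those of deubiquitinases that act on ESCRT cargo. Stambp changed by 1.33 ± 0.10 (17.3 to 44.9 TPM) and Usp8 by -1.36 ± 0.13 (22.6 to 8.24 TPM).

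The tethering complexes changed modestly and upward. Counted here were 8 genes, namely those of HOPS and CORVET and also Vps33b, a paralog of Vps33a. Of these, 5 were called higher and 0 lower from E12.5 to P0, against 27.1% and 51.0% of all genes. Vps8, a CORVET subunit of early endosomes, rose by 0.65 ± 0.11, from 8.95 and 9.82 TPM to 14.95 and 15.59 TPM. Vps33b and Vps33a, which guide SNARE assembly, rose by 0.60 and 0.48, and Vps41, a HOPS subunit, by 0.33. Vps11 rose by 0.37, a call lost without E12.5 replicate 1 (0.28). The shared core subunits Vps16 and Vps18 changed by -0.08 and -0.07 with overlapping libraries, and both turned positive after quantile normalization (0.21 and 0.35) and median-of-ratios scaling (0.19 for each). Of 5 listed GARP and EARP genes, whose complexes receive vesicles at the Golgi apparatus or recycling endosome, 3 were tested. All 3 rose: Vps51 by 0.51, Vps52 by 0.49 and Vps53 by 0.40. Vps51 and Vps53 each overlap another coding gene on the same strand.

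The Vps13 genes encode very long bridge-like lipid transfer proteins and were among the lowest members, at 1.53 to 13.4 TPM. Vps13a, mutated in chorea-acanthocytosis, fell by 0.73 ± 0.12 from E12.5 to P0, a call lost after quantile normalization (-0.10). Vps13c fell by 0.61 ± 0.17, which turned to 0.07 after quantile normalization and was not called without P0 replicate 1 (-0.53). Vps13d rose by 0.58 ± 0.18, a call lost without E12.5 replicate 1 (0.50) or P0 replicate 2 (0.46). At E17 replicate 1 read higher than replicate 2 for Vps13d (13.4 against 8.15 TPM) and for Vps13c (6.75 against 4.02 TPM), the direction in which long transcripts differed in that pair, and the rise of Vps13c from E15.5 to E17 was 0.61 with both libraries, 0.30 (adjusted p = 0.0643) without replicate 1 and 0.93 without replicate 2; that call was also lost without either E15.5 library (0.58 and 0.65).

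Of the remaining Vps genes, Vps9d1, whose VPS9 domain is of the kind that activates endosomal Rab GTPases, rose by 1.37 ± 0.14, from 13.8 and 13.6 TPM to 39.8 and 34.2 TPM. Vps45, which works with endosomal SNAREs, rose by 0.44 ± 0.10. Vps72 fell by 0.52 ± 0.07, from 114 and 117 TPM to 80.1 and 80.3 TPM; despite its name it is known as a subunit of a chromatin remodelling complex.

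Between neighbouring stages the calls were unevenly spread, among members as among all genes. From E12.5 to E14, 1 of 80 members was called, and it was higher, against 8.73% of all genes (3.95% higher, 4.78% lower). At the next step, E14 to E15.5, 37 were called (21 higher, 16 lower), against 51.7% of all genes (18.4% higher, 33.3% lower). Between E15.5 and E17, 19 were called (16 higher, 3 lower), against 25.0% (14.4% and 10.6%). The last step, E17 to P0, had 26 (18 higher, 8 lower), against 41.7% (12.9% and 28.8%). Neighbouring comparisons share the libraries of a stage, so these counts are not independent. In all, 25 members were called at 0 steps, 31 at 1 step, 21 at 2 steps, Snx1 and Vps29 at 3 and Atp6v1g2 at all 4. The call of Vps29 from E15.5 to E17 (0.27) was lost without E17 replicate 2 (0.19) and without any library of the 3 earlier stages (0.24 to 0.29), and held without E17 replicate 1 (0.34).

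Several of these counts moved when a single library was left out. The fit shares 1 estimate of the spread of each gene over the 5 stages. Leaving out a library therefore also moves calls between stages to which it does not belong. The E17 pair, the least alike, enters the spread used at the earlier steps too. Without E17 replicate 1 or replicate 2, 15 members were called from E12.5 to E14, and without either P0 library, 2. From E14 to E15.5 the count was 21 and 20 without E14 replicates 1 and 2, and 21 and 17 without E15.5 replicates 1 and 2. Between E15.5 and E17, 5 and 3 members were called without E15.5 replicates 1 and 2, and 38 without E17 replicate 2 (19 without replicate 1). At the last step 40 were called without E17 replicate 2 (21 higher, 19 lower) and 30 without E17 replicate 1. The split of calls also moved with scaling: it was 33 higher and 10 lower from E14 to E15.5 and 30 higher and 6 lower from E17 to P0 after median-of-ratios scaling, 34 and 11 and then 26 and 6 after quantile normalization, and 14 and 6 from E15.5 to E17 after quantile normalization.

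**Figure D5:**
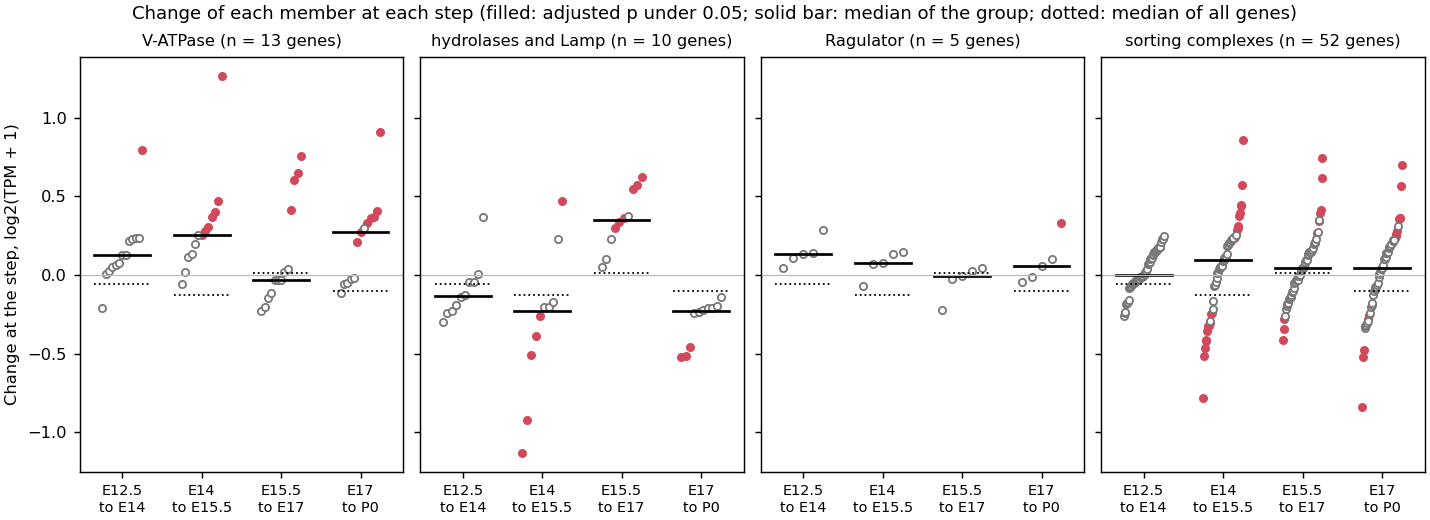
Change of each member on the log2(TPM + 1) scale (vertical axis) at the 4 steps between neighbouring stages (horizontal axis), in panels for the V-ATPase (13 genes), hydrolases and Lamp proteins (10), the Ragulator (5) and the sorting complexes (52); filled points were called, solid bars are group medians and dotted bars the median of all genes. Medians of the hydrolases run from -0.13 and -0.23 to 0.35 and back to -0.23, and those of the V-ATPase from 0.13 and 0.26 to -0.03 and 0.27.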

How the data were processed

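RNA of 10 mouse neocortex libraries was measured by RNA-seq (TruSeq Stranded mRNA). The authors deposited 1 table of TPM with a column per library and 6147 genes. STAR, Subread and the build GRCm38.p5 are named in the submitters' processing notes; no source used here gives the counting options, strand setting or gene lengths. Listed genes held 68.9% to 71.7% of each library's TPM, so the table is part of a transcriptome, and read depth is unknown. Stages came from the labels, columns were matched by name, and 0 columns were left without a sample. The labels give no batch.

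From the deposited TPM, log2(TPM + 1) was analysed with limma 3.58.1 in R 4.3.3 after 99 genes with a mean under 1 TPM were left out: 1 mean per stage over all 10 libraries (5 residual degrees of freedom), a variance trend, and Benjamini-Hochberg adjustment over 6048 genes; changes are called at adjusted p under 0.05 and understate those of low genes. The fit was tested on simulated data. Sums and shares are means ± SD without a test. Positions and overlaps are from GENCODE M21.

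Any member could be named where its complex is described, except that 1 member, kept in the counts, medians and sums, is not reported here by itself; of each other list, the gene that rose most and the gene that fell most from E12.5 to P0 are named. Dmxl2 and M6pr were named beside their partners after their values were seen. Members and lists were chosen with earlier results of these data known. Alternatives were other pseudocounts, filters and scalings, no variance trend, a replicate block, leaving out each library, and fitting the 4 libraries of a comparison alone. Replicates with the same number did not deviate together (correlations of -0.37 to 0.11 over 10 pairs of stages), so the main fit has no block.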

Additional observations from a re-analysis of the deposited data

How the results depend on the processing

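Of 182 named gene results, 86 kept their direction and side of the threshold under all 19 alternatives and 19 changed sign under at least 1, mostly near 0; causes were not tested. Counts of members called moved as follows. From E12.5 to E14 the count of 1 became 2 with a pseudocount of 10 TPM, 3 with no filter, 4 after quantile normalization, 2 after median-of-ratios scaling and 26 when the 4 libraries of the stages were fitted alone. Fitted alone, the 3 later steps gave 56, 1 and 7. With 1 library left out, counts ran from 59 to 76 over the 5 stages, from 1 to 15, 17 to 48, 3 to 38 and 18 to 40 at the 4 steps, and from 53 to 65 from E12.5 to P0, where V-ATPase counts stayed at 11, hydrolase and Lamp counts ran from 5 to 10 and sorting counts from 35 to 42. With the replicate block, whose numbers do not pair the samples, counts were 61 over the stages, 1, 34, 18 and 25 at the steps and 59 from E12.5 to P0. From E12.5 to P0 signs turned after quantile normalization for Chmp6 (0.11), Hexa (0.14), Snx8 (0.26), Vps13c (0.07), Vps16 (0.21), Vps18 (0.35), Vps36 (0.11), Vps37a (0.13), Vps37c (0.05), Dmxl1 (0.16) and C1qb (0.41), and from E14 to E15.5 for Vps13a (0.03). After median-of-ratios scaling they turned for Chmp6 (0.26), Ctsb (0.08), Hexa (0.02), Snx12 (0.01), Snx8 (0.22), Vps16 (0.19), Vps18 (0.19), Vps36 (0.26), Vps37a (0.16), Vps37c (0.06) and C1qb (0.14). Without E12.5 replicate 2 they turned for Atp6v1g1 (-0.02), Lamtor5 (-0.03; 0.12 without replicate 1) and Vps18 (0.04; -0.18 without replicate 1), without E12.5 replicate 1 for Vps36 (0.01), without P0 replicate 1 for Atp6ap2 (-0.03), Atp6v1g1 (-0.02), Snx3 (-0.09) and Vps36 (0.06), and without P0 replicate 2 for Chmp6 (0.02), Snx29 (-0.06; 0.42 without replicate 1) and Snx8 (0.05; -0.14 without replicate 1). Read depth is unknown, and 2 libraries a stage limit the precision.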
